A study of Mus musculus with 46 samples.

Results

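A group of 60 probe sets of 58 genes was followed in the lungs of mice breathing pure oxygen. Each rose in wild type lung within 24 h and was lower again at 72 h. They are all on 1 of the 3 oligonucleotide array types of the study, called B here, where 10581 probe sets carry 1 gene symbol and stand for 7542 genes. They were chosen by measured values, those of the wild type arrays alone. On the scale log2(intensity + 125), the mean at 24 h had to exceed the mean at 0 h by at least 0.8, the mean at 72 h had to lie at least 0.6 below the mean at 24 h, and the mean intensity at 24 h had to reach 500. Differences between wild type arrays at these times are therefore descriptions with no test, and tests are given only for the Nrf2 mutant arrays, for the genotypes at 48 h, for the other array types and for genes that are not members.

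The samples are total RNA of mouse lung tissue from wild type mice and from mice mutated in Nrf2, taken at 0 h or after 24, 48 or 72 h in 100% oxygen. All 8 groups of genotype and time had 2 arrays of type B, labelled replicates 1a and 1b. Array types A and C were hybridised with the same groups, with 1 array of type A for wild type at 24 h and for the mutant at 0 h. The labels give neither strain, age, sex and allele nor the source of 1a and 1b, which need not be separate animals, so p-values measure only the spread between these samples, which may be technical. In bulk lung tissue, fewer cells of a type and less RNA per cell cannot be told apart.

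Breathing pure oxygen for days injures the lung, mainly the capillary endothelium and the thin type 1 cells of the alveoli, and brings oedema and inflammation. The product of Nfe2l2, NRF2, is stabilised under oxidative stress and as a transcription factor switches on antioxidant and detoxification genes through antioxidant response elements. Genes under negative feedback, such as the phosphatases that switch off growth factor signalling, often rise only briefly.

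Nfe2l2 was read on array type A, where its intensity was 2428 to 4488 on the 7 wild type arrays and 303 to 448 on the 7 mutant arrays. Lung markers were present on every array; the summed intensity of 6 alveolar type 2 markers was 58212 to 104143. On array B both mutant 0 h samples stood apart, with a mean correlation to the remaining samples of 0.897 and 0.903, against 0.934 to 0.950 for the other 14. Their Gapdh 3' to 5' signal ratio, which rises as RNA breaks down, was 1.95 and 1.67 against 0.858 to 1.41. The mutant 0 h array of type A also carried 25844 units of 7 squamous epithelium markers and 26822 units of 7 skeletal muscle markers, against 1475 to 2288 and 897 to 3105 on the other arrays. Their part in the results against mutant 0 h was not tested. The differences of mutant 72 h or 48 h from mutant 24 h do not contain these arrays, although the estimate of the spread, made over all 8 groups, does.

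In wild type lung the rise from 0 to 24 h had a median of log2 1.0 over the 60 members and ranged from 0.81 to 2.20. The median over all 7989 tested array B probe sets with 1 symbol was -0.06. From 24 to 72 h the members' median was -0.91, with a range from -2.95 to -0.60. Both 24 h arrays lay above both 0 h arrays for 57 members, where 22.5% of tested probe sets did so, and the exceptions were Tcaf1, Susd2 and Trim46. Both 72 h arrays lay below both 24 h arrays for 59 members, all but Tbc1d13, where the background was 23.0%. The rule fixed these counts and nothing is read from them. At 48 h, whose arrays the rule did not use, the wild type mean lay between those at 0 and 24 h for 55 members. The 48 h mean lay above 24 h for Met, Tmem81 and Tbc1d13 and below 0 h for Stom and Pmepa1. The rule set the 0 and 24 h means apart and bounded the 72 h mean. The counts at 48 and 72 h are therefore descriptions, and no share over all probe sets was taken for them. By 72 h, 53 members were within log2 0.5 of their 0 h mean. Dnajb12, Acot1, Tbkbp1, Iqsec3, Boc and Dusp7 were still more than 0.5 above it, and Ang4 was more than 0.5 below it.

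**Figure D1:**
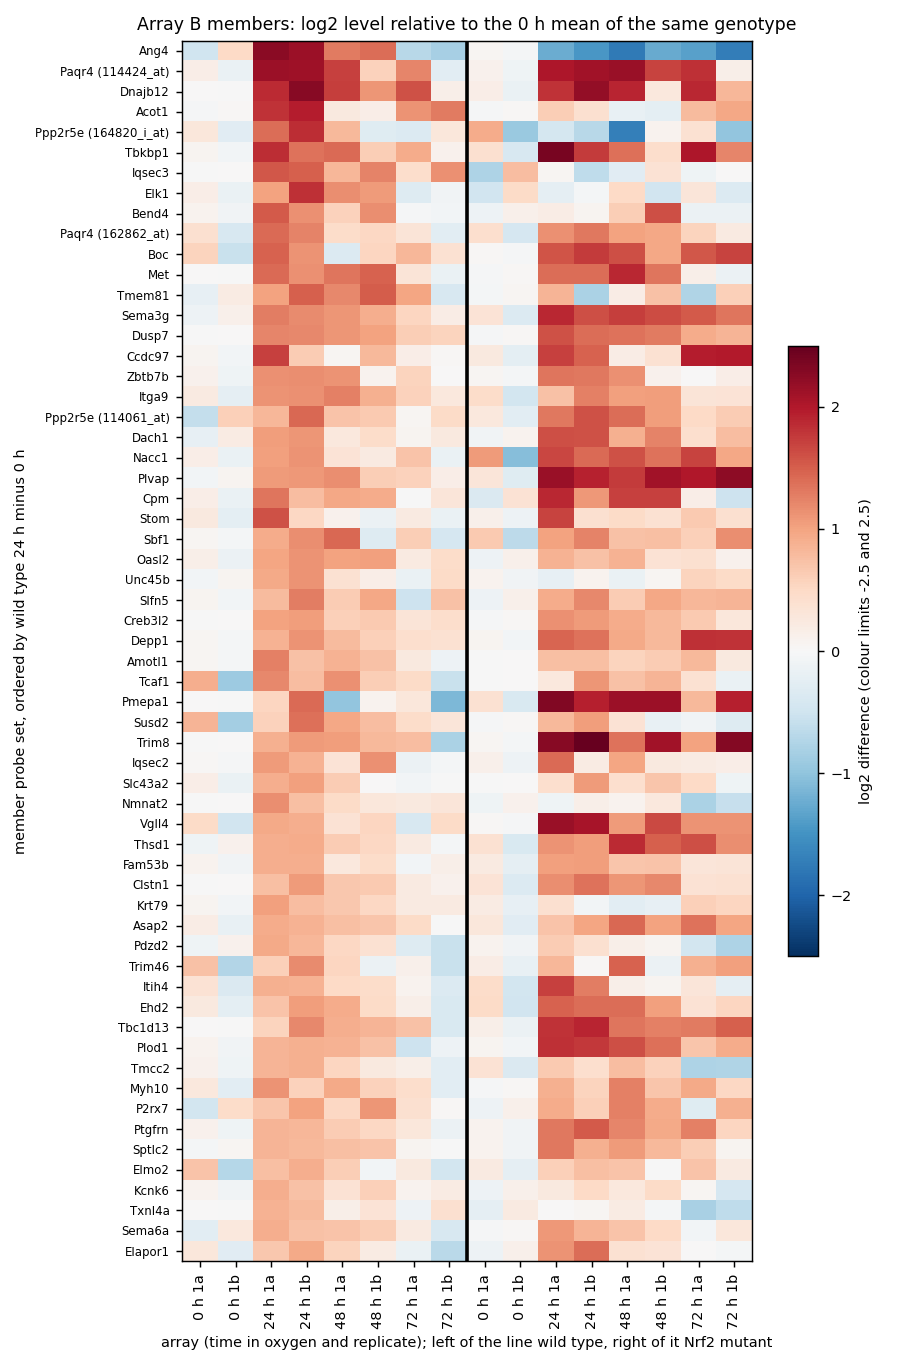
Each row is 1 of the 60 member probe sets and each column 1 array B sample, with colour giving log2(intensity + 125) minus the 0 h mean of the same genotype. The red 24 h columns of wild type follow from the rule. In the mutant most rows are red at 24 h too, Ang4 is blue throughout, and the 7 members with their highest mutant mean at 72 h include Plvap and Depp1.

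Some probe sets lay close to the thresholds. Elapor1 (0.81), Sema6a (0.82) and Txnl4a (0.82) were just inside the rise, and Adamts17 (0.79), Kcnj15 (0.78) and C6 (0.78) just outside. For the fall, Susd2 (-0.60), Depp1 (-0.60) and Dusp7 (-0.62) were inside and Rgs12 (-0.57), Rasgrp3 (-0.57) and Dapk1 (-0.56) outside. Bend4 (524), Stom (571) and Boc (578) just reached the level, and P4ha1 (494), Gm15972 (448) and Otud3 (439) did not. With only replicate 1b at wild type 24 h the rule found 99 probe sets, of which 47 are among the 60, and with only replicate 1a it found 91, of which 48 are. All 60 members passed the filter on dim probe sets, 59 of them without the wild type 24 h arrays. Stom was above the filter on only 1 array outside wild type 24 h.

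The members have many roles. Receptors, ligands and adhesion proteins were Met, Boc, Itga9, Sema3g, Sema6a, Ptgfrn, Thsd1, P2rx7, Paqr4, Clstn1, Susd2, Ang4 and Itih4. Signalling proteins and their regulators were Dusp7, Ppp2r5e, Pmepa1, Tbkbp1, Amotl1, Fam53b, Pdzd2, Elmo2, Sbf1, Trim8 and the small GTPase regulators Asap2, Iqsec2, Iqsec3 and Tbc1d13. Dach1, Elk1, Creb3l2, Vgll4, Zbtb7b, Nacc1 and Bend4 act on transcription. Plvap, Ehd2, Stom, Cpm, Kcnk6, Slc43a2, Tcaf1, Tmcc2, Tmem81 and Elapor1 are membrane proteins, and Myh10, Krt79, Trim46, Unc45b and Dnajb12 belong to the cytoskeleton or the chaperones. Acot1, Sptlc2, Nmnat2 and Plod1 are enzymes, Oasl2 and Slfn5 are interferon-induced, and Depp1, Txnl4a and Ccdc97 complete the set. Paqr4 and Ppp2r5e are each represented by 2 member probe sets.

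The mutant arrays, which did not choose the members, showed the rise for most of them. At 24 h against 0 h in the mutant, 38 of the 60 members were called higher at an adjusted p under 0.05 in limma, where 15.5% of the tested array B probe sets were. Ang4 was called lower, where 15.1% were, and 21 members were not called. Of the 60 differences 55 were above 0, with a median of log2 1.07 against -0.04 over all tested probe sets. Both mutant 24 h arrays lay above both mutant 0 h arrays for 49 members, where 31.3% of probe sets did so. Without mutant 0 h replicate 1b the count called higher was 20, and 15 of the 39 called members were called under every alternative, among them Met, Dusp7, Plod1, Dach1, Plvap, Depp1 and Sema3g. Both mutant 0 h arrays lay below the filter value of 273 for 8 members, 1 probe set each of Paqr4, Dnajb12, Bend4, Boc, Ppp2r5e, Stom, Trim8 and P2rx7, whose differences depend most on the added 125. Against wild type 0 h in place of mutant 0 h, both mutant 24 h arrays were higher for 50 members, where 25.2% of probe sets were. The rule used those wild type arrays, and that control is also among the alternatives counted above.

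Fewer members were called for the return. At 72 h against 24 h in the mutant, 13 members were called lower by limma, where 3.57% of tested probe sets were, and 0 were called higher, where 2.62% were. At an unadjusted p under 0.05 there were 29 members in either direction. The median difference was log2 -0.55 against 0.03 for all probe sets, and 47 of 60 were below 0. Both 72 h arrays were below both 24 h arrays for 32 members, where 24.4% of probe sets showed this. The count called lower was 3 without mutant 24 h replicate 1a, 4 without 24 h replicate 1b, 8 without 72 h replicate 1a, 4 without 72 h replicate 1b and 1 in a fit of only the compared arrays. Met was called under every alternative. Both comparisons contain the mutant 24 h arrays, with opposite sign, so error in those arrays links a rise to a fall. As a description, 11 members were called both higher at 24 h and lower at 72 h, where 1.85% of tested probe sets were: Met, Dusp7, Dach1, Cpm, Creb3l2, Fam53b, Clstn1, Pdzd2, Itih4, Plod1 and Elapor1.

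**Figure D2:**
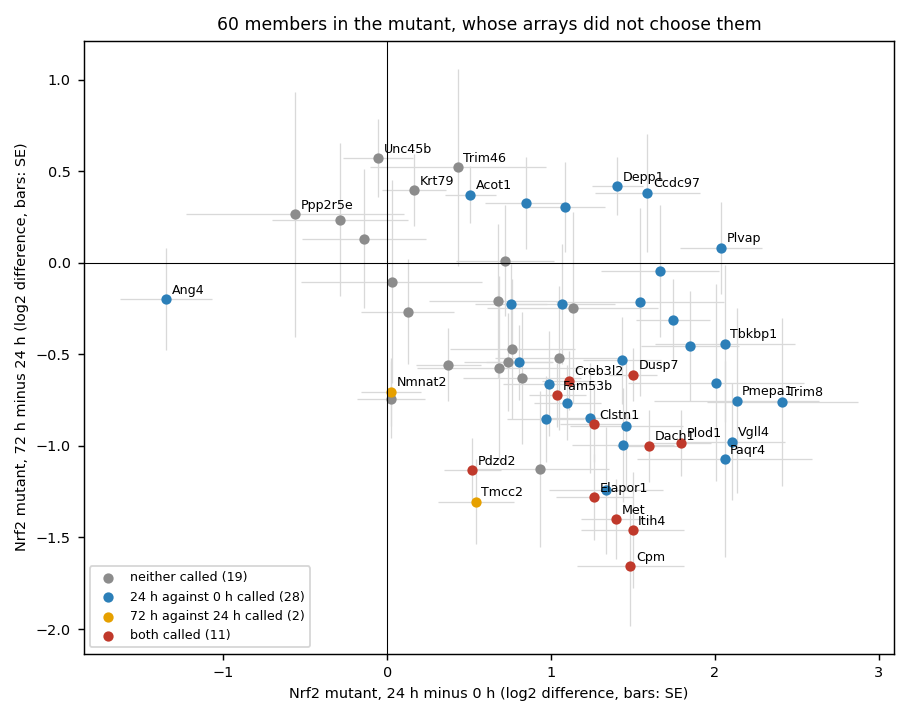
Each point is 1 of the 60 members, with the mutant's 24 h minus 0 h difference on the x axis and its 72 h minus 24 h difference on the y axis, in log2 units with SE bars from limma. Both axes contain the same mutant 24 h arrays. The 11 members called in both lie at the lower right, Met and Cpm among the lowest, and Ang4 is the only called member left of 0.

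Met, the receptor for hepatocyte growth factor and a driver of epithelial repair, was high at 24 and 48 h and low at 0 and 72 h in both genotypes. Its intensity in wild type was 1288 and 1255 at 0 h, 3616 and 2967 at 24 h, 3419.6 and 3738 at 48 h and 1615 and 1114 at 72 h. In the mutant it was 1235 and 1279.7 at 0 h, 3519 and 3517 at 24 h, 5012 and 3366 at 48 h and 1399.7 and 1126 at 72 h. The 24 and 48 h arrays of both genotypes lay above all 0 and 72 h arrays. The mutant rose at 24 h (log2 1.40 ± 0.22, adjusted p = 0.000839) and fell by 72 h (log2 -1.40 ± 0.22, adjusted p = 0.00394) to a level not called different from 0 h (adjusted p = 0.999).

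The stretch of Met upstream of its start holds 3 of the 6 motifs searched, so it is printed first, beside windows of other members that hold one. Promoter sequences of 250 bases before the start came from RefSeq (GRCm38.p6), where 47 of the 58 genes had an entry. Capitals mark the motif, each window is written along the gene's own strand, and up to 20 bases stand on either side.
Met E-box (chr6:17463811-17463856, plus strand): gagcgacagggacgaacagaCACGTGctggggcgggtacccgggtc
Met antioxidant response element core (chr6:17463881-17463929, plus strand): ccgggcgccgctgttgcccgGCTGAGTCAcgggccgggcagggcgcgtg
Ang4 AP-1 (chr14:51773686-51773732, minus strand): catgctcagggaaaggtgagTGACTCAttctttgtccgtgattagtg
Sema3g antioxidant response element core (chr14:31217645-31217693, plus strand): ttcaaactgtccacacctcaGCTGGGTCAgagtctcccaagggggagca
Oasl2 antioxidant response element core (chr5:114896858-114896906, plus strand): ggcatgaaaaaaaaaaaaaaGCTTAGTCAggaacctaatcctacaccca
Slfn5 interferon response element (chr11:82951927-82951976, plus strand): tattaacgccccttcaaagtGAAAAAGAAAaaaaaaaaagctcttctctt
The Met E-box match starts 126 bases and its antioxidant response element match 56 bases before the start, and the second overlaps a match to the AP-1 motif. The motifs were read on both strands. The E-box CACGTG was in 6 of 47 member promoters, or 12.8%, against 9.29% of the promoters of 6037 array B genes. The AP-1 site TGACTCA was in 4, or 8.51% against 4.06%, namely Ang4, Met, P2rx7 and Tbkbp1. The antioxidant response element core TGACNNNGC, which NRF2 can bind, was in 7, or 14.9% against 13.5%. The interferon response element (ISRE) was in 1, or 2.13% against 2.98%. The cyclic AMP element TGACGTCA and the glucocorticoid response element (GRE) were in 0, against 2.85% and 0.0166%. These shares are descriptions, and a match is not a binding site.

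Other receptors, ligands and secreted proteins moved in more than 1 way. Sema3g, a secreted semaphorin made by endothelium, read 3582 and 4269 at 0 h, 9631 and 8993 at 24 h, 8583 and 7477 at 48 h and 5725 and 4458 at 72 h in wild type. In the mutant it read 3304 and 2014 at 0 h, 9862 and 8097 at 24 h, 8794 and 8312 at 48 h and 7699.8 and 6676 at 72 h. All mutant oxygen arrays were above both mutant 0 h arrays, and the rise at 24 h (log2 1.74 ± 0.23, adjusted p = 0.000294) was followed by a difference of -0.31 that was not called. At 72 h Sema3g was still above 0 h in the mutant (log2 1.43 ± 0.23, adjusted p = 0.000875). Itih4, a plasma protein of the acute phase, read 1644 and 956 at 0 h, 2433 and 2411 at 24 h, 1831 and 1774 at 48 h and 1345 and 962 at 72 h in wild type. Its mutant values were 1860.0 and 929.9 at 0 h, 4624 and 3388 at 24 h, 1478 and 1384 at 48 h and 1667 and 1105 at 72 h, so the 24 h arrays stood above all others. It rose at 24 h (log2 1.50 ± 0.31, adjusted p = 0.0048) and fell by 72 h (log2 -1.46 ± 0.31, adjusted p = 0.0204). Its probe set carries the suffix that marks probes shared within a gene family. Values in brackets with no p are log2 differences at 24 h against 0 h in the mutant. Of the rest, Boc, a co-receptor of hedgehog signalling (1.66), the integrin subunit Itga9 (0.99), the immunoglobulin protein Ptgfrn (1.43), Sema6a (0.97), Thsd1 (1.08) and the transport adaptor Clstn1 (1.26) were called higher at 24 h in the mutant. The ATP-gated channel P2rx7 (0.76) and Susd2 (0.93) were not called. Further Sema6a probe sets on B moved both ways. In the mutant 106091_g_at read 489 and 347 at 0 h and 269 and 315 at 24 h, while 111971_at read 206 and 203, then 1481 and 955. In wild type 106091_g_at read 426 and 407, then 305 and 283, and 111971_at read 405 and 481, then 985 and 421.

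Ang4, a secreted ribonuclease of the angiogenin family with antimicrobial activity, had opposite differences from 0 to 24 h in the 2 genotypes, which were not tested against each other. In wild type it read 46.9 and 221 at 0 h, 1039 and 948 at 24 h, 475 and 520.0 at 48 h and 26.4 and 12.7 at 72 h. Mutant lungs read 1371 and 1267 at 0 h, 484 and 402 at 24 h, 300.1 and 476 at 48 h and 435 and 310.0 at 72 h. The wild type 24 h arrays were far above those at 0 h and 72 h, while both mutant 0 h arrays were above every other array of either genotype. It was lower at 24 h than at 0 h in the mutant (log2 -1.35 ± 0.28, adjusted p = 0.00449) and still lower at 72 h (log2 -1.55 ± 0.28, adjusted p = 0.00202). With wild type 0 h in place of mutant 0 h the 24 h difference was log2 1.21, so its sign depends on the 0 h arrays used. The rule used the wild type 0 h arrays, so this value is a description. The probe set is also one whose probes are shared within a family. Another Ang4 probe set, 168928_r_at on array C, was called neither in wild type (log2 0.17 ± 0.32, adjusted p = 0.87) nor in the mutant (log2 0.03 ± 0.32, adjusted p = 0.962) at 24 h.

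Both member probe sets of Paqr4, a membrane receptor of the progestin and adipoQ family, rose in the mutant. The first, 114424_at, read 269 and 186 at 0 h, 1409.7 and 1402 at 24 h, 1019 and 398 at 48 h and 688 and 165 at 72 h in wild type. It read 249.8 and 199.8 at 0 h, 1285 and 1375 at 24 h, 1429.7 and 1000.3 at 48 h and 1115 and 260.4 at 72 h in the mutant. The replicates parted widely at wild type 48 h and at 72 h in both genotypes. The second, 162862_at, read 663 and 332 at 0 h, 1483 and 1296 at 24 h, 696 and 734 at 48 h and 622 and 375 at 72 h in wild type. Its mutant values were 498 and 227 at 0 h, 913 and 1046 at 24 h, 821 and 789.6 at 48 h and 564 and 419.7 at 72 h. In the mutant the 24 h arrays of both probe sets stood clear of 0 h, with differences of log2 2.06 (adjusted p = 0.015) and 1.24 (adjusted p = 0.0109). Neither fall to 72 h was called. A further Paqr4 probe set on array C, 170244_at, did not rise in the mutant, with 859 and 1056 at 0 h and 834 and 662 at 24 h. In wild type it read 713 and 858, then 968 and 673.

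Among the signalling proteins Dusp7, a phosphatase that inactivates ERK kinases, had the smallest p-value for the mutant rise. Its wild type values were 1734 and 1745 at 0 h, 4216 and 4135 at 24 h, 3882 and 3609 at 48 h and 2725 and 2606 at 72 h. The mutant arrays gave 1358 and 1419.7 at 0 h, 4460.4 and 3870.4 at 24 h, 3751 and 3603 at 48 h and 2758 and 2601 at 72 h. No array at 24 or 48 h overlapped one at 0 or 72 h. The mutant rose (log2 1.50 ± 0.14, adjusted p = 5.7e-05), fell by 72 h (log2 -0.61 ± 0.14, adjusted p = 0.0315) and remained above 0 h (log2 0.89 ± 0.14, adjusted p = 0.00104). Fam53b, which helps beta-catenin reach the nucleus, read 1165 and 1016 at 0 h, 2166 and 2140.0 at 24 h, 1337 and 1534 at 48 h and 1032 and 1216 at 72 h in wild type. It read 1294 and 926 at 0 h, 2357 and 2409.7 at 24 h, 1848 and 1882 at 48 h and 1381 and 1409.9 at 72 h in the mutant, where 24 h was again highest. It rose (log2 1.04 ± 0.17, adjusted p = 0.0013) and fell (log2 -0.72 ± 0.17, adjusted p = 0.033). Pdzd2, a scaffold protein with PDZ domains, read 2861 and 3315 at 0 h, 6071 and 5563 at 24 h, 4438 and 4029 at 48 h and 2424 and 2058 at 72 h in wild type. Mutant values were 3902 and 3397 at 0 h, 5738 and 4842 at 24 h, 4023 and 3802 at 48 h and 2607 and 2095 at 72 h. All 72 h arrays of both genotypes were below all 0 h arrays, and in the mutant both the rise (log2 0.52 ± 0.18, adjusted p = 0.0485) and the fall (log2 -1.13 ± 0.18, adjusted p = 0.00394) were called.

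Tbkbp1, an adaptor of the kinase TBK1, read 276 and 242 at 0 h, 1253 and 858 at 24 h, 894 and 460.0 at 48 h and 608 and 289 at 72 h in wild type. On mutant arrays it read 322 and 131 at 0 h, 1635 and 1008 at 24 h, 751 and 332 at 48 h and 1247 and 662 at 72 h. Replicate 1a was the higher one in each mutant group, and 24 and 72 h lay above 0 h (log2 2.06 ± 0.43, adjusted p = 0.00458 at 24 h). Iqsec3, an exchange factor for ARF GTPases, read 142 and 148 at 0 h, 666 and 631 at 24 h, 356 and 509.6 at 48 h and 243 and 467 at 72 h in wild type. It read 172 and 737 at 0 h, 401 and 201 at 24 h, 292 and 521 at 48 h and 343 and 382 at 72 h in the mutant, where 1 of the 0 h arrays was the highest of all and no comparison was called. Pmepa1, a membrane protein induced by and limiting TGF-beta signalling, read 651 and 638 at 0 h, 985 and 1938 at 24 h, 265 and 694 at 48 h and 813 and 228 at 72 h in wild type. The mutant values were 411 and 193 at 0 h, 1941 and 1459.7 at 24 h, 1693 and 1691 at 48 h and 602 and 1460.4 at 72 h. Both mutant 48 h arrays were above both wild type 48 h arrays, yet the difference was not called (log2 1.68 ± 0.50, adjusted p = 0.248), and the mutant rise at 24 h was called (log2 2.13 ± 0.50, adjusted p = 0.00919). Another Pmepa1 probe set on B, 162942_at, did not show this gap or a return. It read 1296 and 1013 at 0 h, 1843 and 1531 at 24 h, 2163 and 2526 at 48 h and 2613 and 1710 at 72 h in wild type. The mutant gave 1109 and 740, 1604 and 2096, 1991 and 2292, and 1972 and 2513 at the same times.

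The member probe sets of Ppp2r5e, a regulatory subunit of protein phosphatase 2A, differed in their calls, and the difference between them was not tested. The probe set 164820_i_at read 221 and 111 at 0 h, 629 and 899 at 24 h, 375 and 106 at 48 h and 99.8 and 221 at 72 h in wild type. On mutant arrays it read 1061 and 205 at 0 h, 337 and 264 at 24 h, 66.6 and 537 at 48 h and 689 and 193 at 72 h. The 0 h arrays were far apart, and the other groups overlapped their range. Its mutant difference at 24 h was not called (log2 -0.56 ± 0.67, adjusted p = 0.583), while that of 114061_at was (log2 1.46 ± 0.34, adjusted p = 0.00908). Ppp2r5e had further tested probe sets on B. For 162885_at, 163059_at and 164150_at all mutant 24 and 72 h arrays were above both mutant 0 h arrays. The first read 654 and 750 at 0 h, 973 and 840 at 24 h and 1686 and 1264 at 72 h. For 113530_at the mutant 0 and 24 h arrays overlapped. Of the other signalling members, Trim8 (2.41), the Rab GTPase activator Tbc1d13 (1.85), Asap2 (0.84) and Amotl1 (0.76) were called higher in the mutant at 24 h. Iqsec2 (0.82), Elmo2 (0.67) and Sbf1 (1.13) were not.

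Of the genes acting on transcription, Dach1, a corepressor of development and cell growth, and Creb3l2, a factor released from the endoplasmic reticulum membrane, were called in both directions in the mutant. Dach1 read 1607 and 2161 at 0 h, 4008 and 4128 at 24 h, 2265 and 2629 at 48 h and 1955 and 2243 at 72 h in wild type. The mutant arrays read 1317 and 1500.2 at 0 h, 4549.5 and 4472 at 24 h, 2724 and 3513 at 48 h and 1935 and 2487 at 72 h. The 24 h arrays were above all others in each genotype. Dach1 rose (log2 1.60 ± 0.20, adjusted p = 0.000211) and fell (log2 -1.0 ± 0.20, adjusted p = 0.0133) in the mutant. Creb3l2 read 4217 and 4290.3 at 0 h, 8705 and 8911 at 24 h, 6462 and 6771 at 48 h and 5348 and 5833 at 72 h in wild type. Its mutant values were 5068 and 5268 at 0 h, 11602 and 10934 at 24 h, 9897 and 9219 at 48 h and 8164 and 6289 at 72 h, so that 24 h was highest and 0 h lowest. The rise (log2 1.11 ± 0.16, adjusted p = 0.000535) and the fall (log2 -0.64 ± 0.16, adjusted p = 0.0368) were both called. On further Creb3l2 probe sets of B the mutant 24 and 72 h arrays overlapped. In the mutant 109177_at read 2209 and 1662 at 0 h, 2131 and 2186 at 24 h and 1849 and 2221 at 72 h. Values of 112191_at were 1595 and 1737, then 2348 and 2191, then 2500 and 1838.

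Elk1, an ETS factor activated by ERK, read 330.2 and 235 at 0 h, 687 and 1302 at 24 h, 778 and 718 at 48 h and 201 and 258 at 72 h in wild type. The mutant arrays gave 358 and 808 at 0 h, 448 and 519 at 24 h, 822 and 355 at 48 h and 705 and 407 at 72 h. The mutant groups overlapped at every time (at 24 h against 0 h log2 -0.14 ± 0.38, adjusted p = 0.821). Bend4, a BEN domain protein, read 145 and 114 at 0 h, 609.6 and 438 at 24 h, 254 and 445 at 48 h and 125 and 118 at 72 h in wild type. Mutant values were 109.8 and 153 at 0 h, 164 and 143 at 24 h, 264 and 652 at 48 h and 105 and 107 at 72 h, with 1 of the 48 h arrays far above the rest. Its mutant difference at 24 h was 0.12, and the 48 h difference was not called either (log2 0.98 ± 0.29, adjusted p = 0.169). Zbtb7b (1.33), the TEAD cofactor Vgll4 (2.11) and Nacc1 (1.54) were called higher at 24 h in the mutant.

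**Figure D3:**
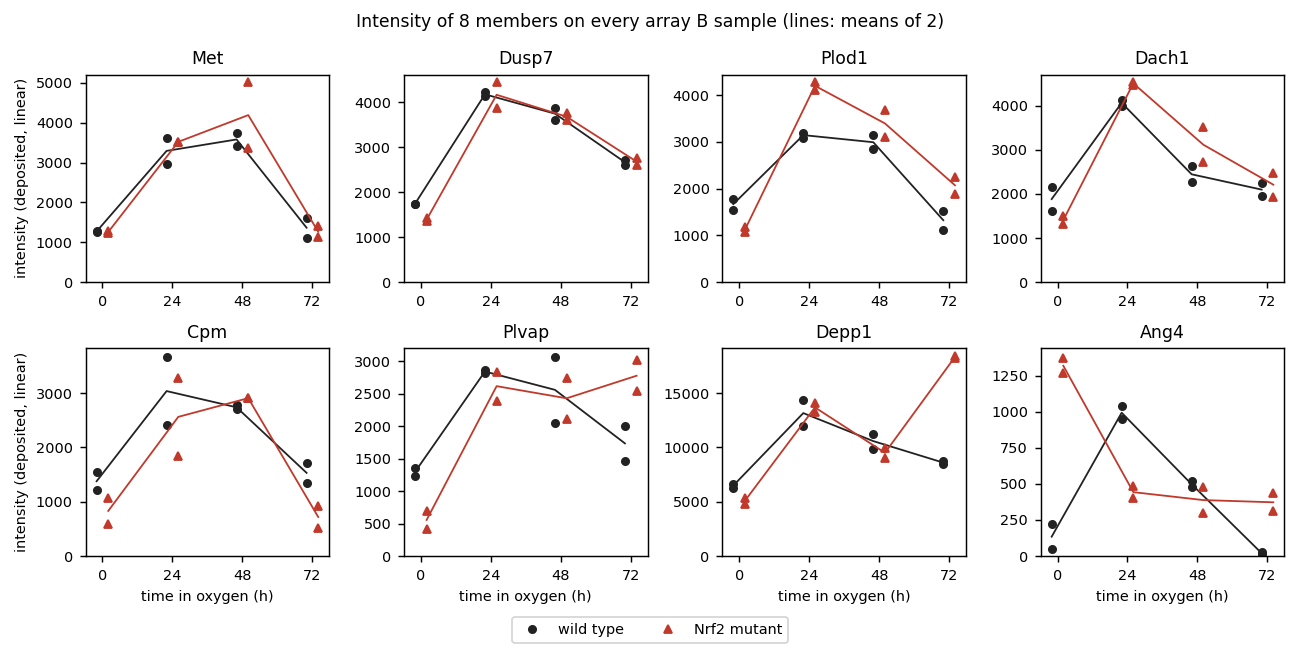
Deposited intensity (linear, y axis) of 8 members against hours in oxygen (x axis), with wild type as circles (set slightly left of each time), Nrf2 mutant as triangles (slightly right) and lines joining the means of 2 arrays. Met, Dusp7, Plod1, Dach1 and Cpm return towards 0 h in both genotypes, Plvap and Depp1 have their highest mutant mean at 72 h, and Ang4 starts high in the mutant.

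Membrane proteins of endothelium and of the alveolar surface were among those that rose in the mutant. Plvap, which forms the diaphragms of endothelial fenestrae and caveolae, read 1227 and 1363 at 0 h, 2825 and 2864 at 24 h, 3067 and 2057 at 48 h and 2003 and 1471 at 72 h in wild type. Mutant arrays read 700.2 and 413 at 0 h, 2844 and 2394 at 24 h, 2112 and 2751 at 48 h and 2544 and 3015 at 72 h. All mutant oxygen arrays were above both 0 h arrays. The rise was called (log2 2.04 ± 0.25, adjusted p = 0.000211), the difference from 24 to 72 h was not (log2 0.08 ± 0.25, adjusted p = 0.901), and 72 h was above 0 h (log2 2.12 ± 0.25, adjusted p = 0.000136). Of the other Plvap probe sets on B, 111358_at was higher and 165259_r_at lower on both mutant 24 h arrays than on both 0 h arrays. Ehd2, which stabilises caveolae, was called higher at 24 h (1.44). Cpm, a peptidase anchored on the surface of alveolar cells, read 1546 and 1209 at 0 h, 3666 and 2411 at 24 h, 2777 and 2702 at 48 h and 1353 and 1712 at 72 h in wild type. The mutant gave 593 and 1069.8 at 0 h, 3286 and 1840.2 at 24 h, 2912 and 2905 at 48 h and 913 and 524 at 72 h. Its 24 and 48 h arrays lay above those at 0 and 72 h in both genotypes. It rose (log2 1.48 ± 0.32, adjusted p = 0.00597) and then had the largest mutant fall of all members (log2 -1.66 ± 0.32, adjusted p = 0.0128).

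Tmcc2, a protein of the endoplasmic reticulum membrane, read 7119 and 6195 at 0 h, 12021 and 12393 at 24 h, 9662 and 7899.7 at 48 h and 7322 and 5520.1 at 72 h in wild type. In the mutant it read 7654 and 4644 at 0 h, 9521 and 8009 at 24 h, 10318 and 8948 at 48 h and 3444 and 3475 at 72 h. Both mutant 72 h arrays were below every other array of either genotype. The rise was not called (log2 0.54 ± 0.23, adjusted p = 0.111) and the fall was (log2 -1.31 ± 0.23, adjusted p = 0.00794), to below 0 h (log2 -0.76 ± 0.23, adjusted p = 0.0331). Elapor1, a regulator of autophagy in late endosomes, read 1398 and 905 at 0 h, 1882 and 2291 at 24 h, 1723 and 1310.4 at 48 h and 985 and 658 at 72 h in wild type. It read 725 and 881 at 0 h, 1901 and 2309.9 at 24 h, 1072 and 1052 at 48 h and 812 and 768 at 72 h in the mutant, where the 24 h arrays stood above all others. It rose (log2 1.26 ± 0.23, adjusted p = 0.00233) and fell (log2 -1.28 ± 0.23, adjusted p = 0.00898). The potassium channel Kcnk6 (0.37), the amino acid transporter Slc43a2 (0.74), Stom (1.05), Tcaf1 (0.68) and Tmem81 (0.03) were not called at 24 h in the mutant.

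Plod1, which hydroxylates lysines of collagen, had the second smallest p-value for the mutant rise. Its wild type values were 1786 and 1551 at 0 h, 3094 and 3198 at 24 h, 3146 and 2840.0 at 48 h and 1125 and 1523 at 72 h. In the mutant they were 1178 and 1069 at 0 h, 4281 and 4121 at 24 h, 3683 and 3107 at 48 h and 1885 and 2258 at 72 h. The 24 and 48 h arrays were above all 0 and 72 h arrays of their genotype. Plod1 rose (log2 1.79 ± 0.18, adjusted p = 7.1e-05), fell (log2 -0.98 ± 0.18, adjusted p = 0.00901) and was still above 0 h at 72 h (log2 0.81 ± 0.18, adjusted p = 0.00682). Other Plod1 probe sets moved both ways. On C, 137319_at read 1112 and 1404 at 0 h and 551 and 727 at 24 h in wild type. In the mutant it read 1000 and 1192, then 630 and 572. On B, 165010_f_at read 2163 and 1762 at 0 h and 1294 and 1731 at 24 h in wild type. The wild type 24 h means of 137320_g_at, 138520_at and 169992_i_at on C were above 0 h. In the mutant 169992_i_at read 660 and 567 at 0 h and 314 and 517 at 24 h. There 138520_at read 551 and 1119, then 851 and 424, and the dim 137320_g_at read 140 and 79.9, then 198 and 108. Mutant values of 165010_f_at were 1860 and 1093, then 1405 and 1997. Sptlc2, a subunit of the first enzyme of sphingolipid synthesis, was called higher at 24 h (1.10). Nmnat2, which makes NAD, had a difference of 0.02 at 24 h and was called lower at 72 h than at 24 h (log2 -0.71 ± 0.18, adjusted p = 0.0461).

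Acot1, a thioesterase that releases fatty acids from coenzyme A and is induced by fasting, read 663 and 702 at 0 h, 2715 and 3004 at 24 h, 834 and 779.7 at 48 h and 1639 and 1853 at 72 h in wild type. The mutant read 748 and 779.9 at 0 h, 1238 and 1044 at 24 h, 659 and 630.1 at 48 h and 1413 and 1609 at 72 h. The 24 h arrays were above 0 h in both genotypes, by much more in wild type, and in both the 48 h arrays were lower than those at 24 and 72 h. The mutant rise was called (log2 0.51 ± 0.16, adjusted p = 0.0321), the difference at 48 h was not called (log2 -0.71 ± 0.16, adjusted p = 0.0691), and 72 h was above 0 h (log2 0.88 ± 0.16, adjusted p = 0.00174). Whether the genotypes differ in the rise was not tested, because the rule used the wild type values. Close paralogs of Acot1 lie beside it in the genome, and the files do not say whether the probes separate them.

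Depp1, a FOXO-regulated gene of fasting and stress, had its highest values in the mutant at 72 h. Its wild type values were 6669 and 6304 at 0 h, 11967 and 14355 at 24 h, 11276 and 9886 at 48 h and 8752 and 8446 at 72 h. In the mutant they were 5354 and 4836 at 0 h, 14131 and 13238 at 24 h, 9974 and 9037 at 48 h and 18430.2 and 18222 at 72 h. The mutant 72 h arrays were above every other array of either genotype. The rise at 24 h (log2 1.40 ± 0.16, adjusted p = 0.000126) was followed by a difference at 48 h that was not called (log2 -0.52 ± 0.16, adjusted p = 0.183), and 72 h was above 0 h (log2 1.82 ± 0.16, adjusted p = 1.8e-05). Ccdc97, a coiled-coil protein, read 211 and 180.1 at 0 h, 927 and 373 at 24 h, 205 and 439.9 at 48 h and 235 and 202 at 72 h in wild type. Readings in the mutant were 277 and 162 at 0 h, 985 and 814 at 24 h, 263 and 318 at 48 h and 1200.0 and 1211 at 72 h. Its mutant arrays were high at 24 and 72 h and low at 0 and 48 h, without overlap. The rise was called (log2 1.59 ± 0.32, adjusted p = 0.00392) and the 48 h difference was not (log2 -1.30 ± 0.32, adjusted p = 0.109).

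Dnajb12, a co-chaperone in the endoplasmic reticulum membrane, read 244 and 238 at 0 h, 1201 and 1651 at 24 h, 1090.4 and 663 at 48 h and 982 and 280.4 at 72 h in wild type. In the mutant it read 266 and 184 at 0 h, 1094 and 1475 at 24 h, 1179.7 and 290.5 at 48 h and 1154 and 490.2 at 72 h. From 48 h on the replicates parted widely, and the rise at 24 h was called (log2 2.01 ± 0.54, adjusted p = 0.0175). Krt79, a keratin, read 3155 and 2868 at 0 h, 6231 and 5241 at 24 h, 4890.0 and 4348 at 48 h and 3549 and 3542 at 72 h in wild type. It read 3769 and 2839 at 0 h, 4363 and 3103 at 24 h, 2691 and 2838 at 48 h and 4987 and 4788 at 72 h in the mutant. At 48 h both mutant arrays were below both wild type arrays, a difference that was not called (log2 -0.71 ± 0.20, adjusted p = 0.199). The splicing factor subunit Txnl4a read 439 and 437 at 0 h, 901 and 845 at 24 h, 498 and 591 at 48 h and 390.2 and 621 at 72 h in wild type. Its mutant values were 618 and 892 at 0 h, 748 and 769 at 24 h, 884 and 720.1 at 48 h and 369 and 437 at 72 h. They overlapped up to 48 h and were lowest at 72 h, which was called lower than 0 h (log2 -0.72 ± 0.21, adjusted p = 0.0271). The myosin chaperone Unc45b (-0.05), Trim46 (0.43) and the nonmuscle myosin Myh10 (0.72) were not called at 24 h in the mutant.

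Oasl2, an interferon-induced relative of the oligoadenylate synthetases, read 779 and 618 at 0 h, 1488 and 1655 at 24 h, 1513 and 1546 at 48 h and 827 and 1003 at 72 h in wild type. In the mutant it read 673 and 827 at 0 h, 1476 and 1324 at 24 h, 1475 and 997 at 48 h and 1031 and 819 at 72 h. All 24 and 48 h arrays were above all 0 h arrays. It rose in the mutant (log2 0.81 ± 0.21, adjusted p = 0.0136), and the fall to 72 h was not called (log2 -0.54 ± 0.21, adjusted p = 0.155). Slfn5, also induced by interferon, was called higher at 24 h (1.06).

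Of the 60 members, 0 were called at 48 h against 24 h in the mutant by limma, with 11 at an unadjusted p under 0.05. Of all tested probe sets 0.188% were called higher and 0.275% lower. The median was log2 -0.19, with 43 members below 0. Between mutant and wild type at 48 h, 0 were called by limma and 4 had an unadjusted p under 0.05, with 0.113% of probe sets called higher and 0.188% lower in the mutant. The median was log2 0.05, with 33 members above 0. Creb3l2 (log2 0.52 ± 0.16, adjusted p = 0.263), Txnl4a (log2 0.47 ± 0.21, adjusted p = 0.535), Fam53b (log2 0.35 ± 0.17, adjusted p = 0.589) and Elapor1 (log2 -0.46 ± 0.23, adjusted p = 0.613) had the smallest p-values after Krt79 and Pmepa1.

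At 72 h against 0 h in the mutant, 16 members were called higher by limma, where 14.4% of tested probe sets were, and 5 were called lower, where 13.5% were. The median was log2 0.46 and 45 members were above 0. All 16 had also been called higher at 24 h, against the same 0 h arrays: Acot1, Tbkbp1, Boc, Sema3g, Dusp7, Ccdc97, Dach1, Plvap, Depp1, Trim8, Vgll4, Thsd1, Asap2, Tbc1d13, Plod1 and Ptgfrn. Ang4, Nmnat2, Pdzd2, Tmcc2 and Txnl4a were called lower. The highest of the 4 mutant means was at 24 h for 35 members, at 48 h for 16, at 72 h for 7 and at 0 h for 2. Those highest at 72 h were Acot1, Ccdc97, Plvap, Unc45b, Depp1, Krt79 and Trim46. Without mutant 0 h replicate 1b, 8 members were called higher. The count called lower was 2 or 3 without any 1 of the 4 arrays compared and 1 in a fit of only those arrays.

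Other probe sets for the same genes on array types A and C, which the rule did not see, reached the threshold of the wild type rise in 2 of 25 cases. These arrays may carry the same RNA extracts. In all, 19 member genes had 25 tested probe sets there, 10 on A and 15 on C. Some of them, such as Dnajb12 135718_at and Zbtb7b 160331_at, were below the filter on most arrays. At 24 h against 0 h in wild type, 16 of the 25 were above 0, with a median of log2 0.17 against -0.04 over all tested probe sets of A and C. By limma 1 was called higher, where 1.15% of tested probe sets on A and 0.369% on C were, and 5 had an unadjusted p under 0.05. That one was Acot1 on array A (log2 1.54 ± 0.20, adjusted p = 0.00512). It read 618 and 602 at 0 h, 1931 on the only 24 h array and 1017 and 1138 at 72 h, so the 24 h array was highest. In a fit of only the compared arrays it was not called. A Plod1 probe set on C also exceeded 0.8 but was not called (log2 1.66 ± 0.55, adjusted p = 0.163). In the mutant at 24 h against 0 h, 16 of the 25 were above 0, with a median of log2 0.06, and 2 reached 0.8. By limma 3 were called higher and 0 lower, where 15.4% and 13.9% of genes over all array types were. At 72 h against 24 h in the mutant the median was log2 -0.04. By limma 1 was called higher and 1 lower there, where 2.86% and 3.47% of genes were.

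For the fall from 24 to 72 h in wild type, 15 of these 25 probe sets were below 0 and 6 were at or below -0.6. By limma 0 were called lower, where 0.681% on A and 0.209% on C were, and 8 had an unadjusted p under 0.05 in either direction. Pdzd2 (-1.01), Thsd1 (-0.70), Itih4 (-0.68), Acot1 (-0.80) and 2 probe sets of Plod1 (-1.82 and -1.17) were the 6. The Plod1 probe set at -1.17 was dim, with 234 and 236 at 24 h and 46.3 and 45.0 at 72 h. The filter value on C was 210. On array B itself 27 further tested probe sets of 18 member genes did not meet the rule. Plvap 111358_at (1.28 at 24 h and -0.40 from 24 to 72 h) and Cpm 112677_at (1.01 and -0.46) came close, while Dnajb12 116090_at (0.01) and Elk1 111609_r_at (-0.68) did not. Plvap 165259_r_at read 1509 and 1821 at 0 h, 1939 and 1922 at 24 h and 2323 and 2403 at 72 h in wild type. In the mutant it read 3192 and 3345, then 1818 and 2101, then 2101 and 2544 at these times.

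**Figure D4:**
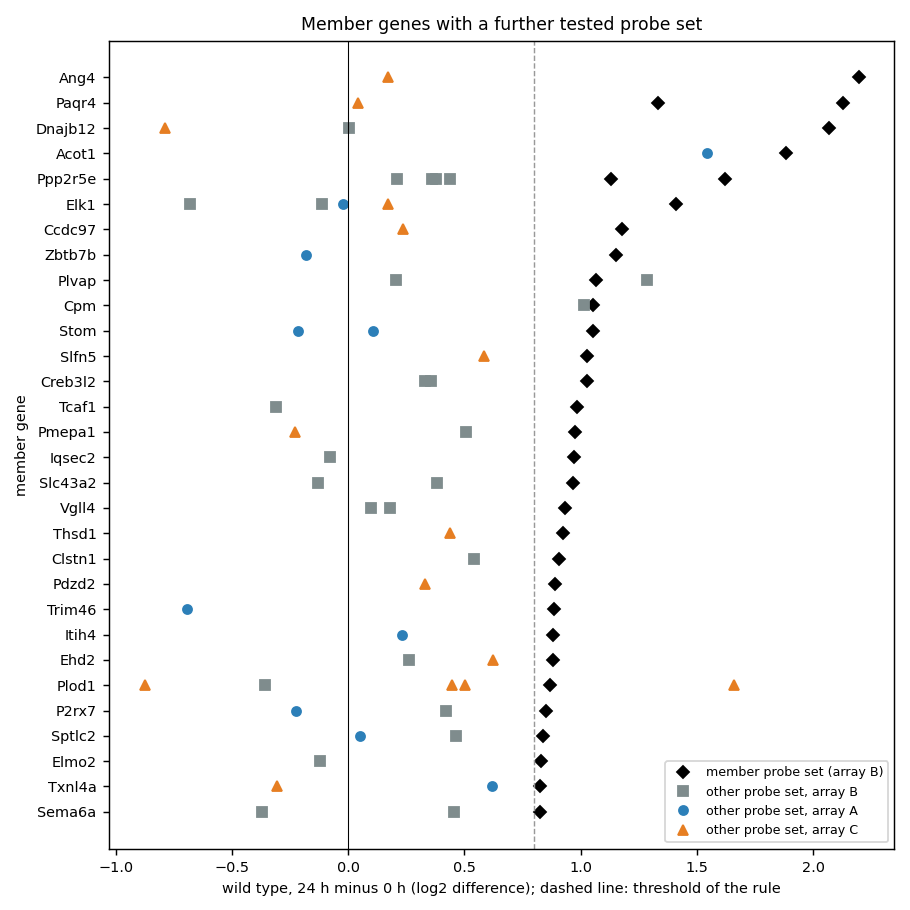
Each row is a member gene with a further tested probe set. The x axis gives the wild type 24 h minus 0 h difference in log2 units, for the member probe set (diamonds) and for the others on array B (squares), A (circles) and C (triangles). Most of the others lie left of the dashed threshold of the rule.

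Only 2 of the 11 gene lists by role held a member. In wild type the member genes were left out of these counts and of their background, since the rule used their values. Of 17 other tested genes of fatty acid oxidation and fasting, over all array types, 2 were called higher and 0 lower by limma at 24 h in wild type, where 1.21% and 0.742% of 13346 genes were. They were Vnn1 (log2 2.33 ± 0.29, adjusted p = 0.00249) and the lipase inhibitor Angptl4 (log2 1.60 ± 0.18, adjusted p = 0.00249). In the mutant at 24 h, 7 of 18, with Acot1 among them, were called higher and 2 lower, where 15.4% and 13.9% of genes were. Cpt1a, the gate of mitochondrial fatty acid entry, rose (log2 1.41 ± 0.25, adjusted p = 0.00258). From 24 to 72 h, 0 were called in wild type by limma, with 2 at an unadjusted p under 0.05 and a background of 1.03% higher and 0.854% lower, and 3 rose in the mutant, with a background of 2.86% higher and 3.47% lower.

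Of 14 tested interferon response genes other than Oasl2, 1 was called higher at 24 h in wild type, Xaf1 (log2 5.64 ± 0.37, adjusted p = 4.6e-05), and 1 lower, Gbp3 (log2 -1.05 ± 0.22, adjusted p = 0.0488), against the same background. In the mutant at 24 h Oasl2 was the only one of 15 called, where 15.4% of genes were called higher and 13.9% lower. From 24 to 72 h, 1 was called lower in wild type, where 0.854% were, and 1 higher and 2 lower in the mutant, where 2.86% and 3.47% were.

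Markers of endothelium stand here beside the endothelial members Plvap, Sema3g and Thsd1. The summed intensity of 9 endothelial markers on array A was 36031 to 37125 at 0 h, 55912 at 24 h, 50304 to 54903 at 48 h and 43319.9 to 46691 at 72 h in wild type. In the mutant it was 29924, 62355 to 74895, 47159 to 54099.6 and 52826 to 56443 at the same times. It was thus highest at 24 h in both genotypes, and none of the markers was below the filter on every array. This was not particular to endothelium. The sum of 6 alveolar type 2 markers was also highest at 24 h, at 79529 in wild type and 86700 to 104143 in the mutant. Of 10 tested endothelial markers 0 were called by limma at 24 h in wild type, with 4 at an unadjusted p under 0.05, where 1.21% of genes were called higher. In the mutant 5 were called higher, where 15.4% were. The largest wild type difference belonged to Cdh5, the cadherin of endothelial junctions (log2 0.93 ± 0.26, adjusted p = 0.12). Only Pecam1 (log2 -0.44) and Egfl7 (log2 -0.10) were below 0.

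The 5 alveolar type 1 markers on array A, beside Cpm, summed to 49482 to 53809 at 0 h, 58975 at 24 h, 42266 to 43135 at 48 h and 39817 to 40301 at 72 h in wild type. In the mutant they summed to 50508, 47442 to 50909, 44986 to 52209.6 and 31847 to 32752. The 72 h sums were the lowest in each genotype. The 8 fibroblast and matrix markers, beside Plod1, summed to 16689 to 17779.5, 35989, 26968 to 27111 and 22378 to 24125 in wild type and to 26686, 31349 to 34328, 44218 to 51882 and 38269 to 38981 in the mutant. The part of these cell types in the members' changes was not tested.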

How the data were processed

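The authors deposited intensity on a linear scale for each probe set, scaled so that the 2%-trimmed mean on array type B is 800.17 to 800.21 on all 16 arrays. Tool and genome build are not stated, that is, not given in the sources used here, so the deposited values are tied to no genome position; the positions printed with promoter windows are those of the RefSeq table (GRCm38.p6). The scaling was kept. Deposited intensities were put on a log2 scale after adding 125 on type B, and after adding the 25th percentile on types A and C (78.5 and 106), so differences of dim probe sets are understated. The number of arrays limits the precision.

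Control probe sets were removed, and a probe set was tested where it exceeded the 40th percentile of its type (273 on B) on at least 2 arrays. A linear model of 8 group means was fitted to each type in limma 3.58.1 (R 4.3.3). A group with 1 array of type A takes its spread from the rest. Tests were two-sided, with p-values adjusted by Benjamini-Hochberg over the tested probe sets of all 3 types, and a call is an adjusted p under 0.05. The script was tested on simulated data.

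Gene symbols came from the platform annotation, and all 60 members' gene identifiers were found in RefSeq under the same symbols. Of the members, 3 carry the probe set suffix _f_at, for probes shared within a gene family, 1 carries _i_at and 1 carries _g_at. Role and marker lists use the brightest tested probe set of each gene. The members and lists were chosen with earlier results of these data known. Values on every array are given for the 10 largest wild type rises, for the 6 smallest adjusted p in each of 4 tests (mutant 24 h against 0 h, 48 h and 72 h against 24 h, and mutant against wild type at 48 h), and for members of a role list. Abca3 was left out by the rule.

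Alternatives were other added values, a floor, quantile normalization, no filter or a stricter one at the 60th percentile, eBayes with trend and robust, adjustment over type B alone, a replicate block, only the compared arrays, wild type 0 h as control, and leaving out each replicate.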

Additional observations from a re-analysis of the deposited data

Results flagged for a closer look

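For 9 members both mutant arrays moved opposite to both wild type arrays in the same interval. The wild type direction was fixed by the rule that chose the members, and the difference between the genotypes was not tested. How many of all tested array B probe sets moved in this way was not counted, so the count of 9 is only a description. From 0 to 24 h this was Ang4 alone, at log2 -1.35 in the mutant and 2.20 in wild type, where both mutant 0 h arrays, which stood apart from the others, were high. Another Ang4 probe set, on array C, had a difference of 0.03 in the mutant and 0.17 in wild type, neither of them called by limma.

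From 24 to 72 h, where no mutant 0 h array enters, it was 8 members. The chaperone Unc45b stood at log2 0.57 in the mutant and -0.89 in wild type. Trim46 had 0.52 and -1.11, and Krt79 0.40 and -0.67. Depp1 had 0.42 in the mutant and -0.60 in wild type. Ccdc97 gave 0.38 and -1.08, and Acot1 0.37 and -0.67. The last were Asap2 with 0.33 and -0.66 and Thsd1 with 0.30 and -0.83. By limma none of these 8 mutant differences was called higher at 72 h than at 24 h.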

How the results depend on the processing

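The limits are 2 arrays a group, replicates that may be technical, and mutant 0 h arrays that stood apart. The rule found 47 to 74 probe sets with other added values or quantile normalization and 51 to 99 without 1 wild type array. Leaving out array 1a of wild type 24 h gave 99, and leaving out 1b gave 91. Members called higher in the mutant at 24 h were 38, 28 to 40 under the other settings and 20 to 34 without 1 replicate. The 1 called lower, Ang4, was 1 without any 1 replicate and 0 with wild type 0 h as control, where its difference turned to log2 1.21. Members called lower at 72 h against 24 h were 13, 12 to 17 with all arrays in the fit, 1 with only the compared arrays and 3 to 8 without 1 replicate. At 48 h against 24 h, 0 were called lower, 1 with 250 added, and 2 each with the filter at the 60th percentile and with eBayes trend and robust. None was called lower there without any 1 replicate (0 in each). At 72 h against 0 h, members called higher were 16, with 12 to 20 under the other settings and 8 to 16 without 1 replicate. Those called lower were 5, then 1 with only the compared arrays and 2 to 3 without 1 replicate. No member was called between genotypes at 48 h under any setting tried. On types A and C the 1 probe set called higher in wild type at 24 h became 0 with only the compared arrays, and the 0 called lower at 72 h became 1 with the 60th percentile filter. Alternatives for A and C were added after seeing the data. Leaving out wild type 24 h replicate 1b removes the only such array of type A, so no value was taken from it. The 28 members called higher at 24 h came with wild type 0 h as control, whose arrays the rule used, so that count is a description. Among the other settings with all replicates the lowest count was 31, with only the compared arrays. The causes were not tested.

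With a replicate block, 40 members were called higher at 24 h in the mutant, 17 lower at 72 h and 2 lower at 48 h against 24 h, and 20 higher and 5 lower at 72 h against 0 h. Over 28 pairs of groups, deviations of same-numbered arrays correlated at -0.08 to 0.20, with a median of 0.10 and 14 pairs above 0.1. The numbers 1a and 1b were taken as pairing only if every pair was above 0.1, which was not met, and a weak shared structure was not tested further. The calls of single members, and the 6 smallest p-values in each comparison at 48 h, made 85 results. Of their values under the alternatives, 1055 kept their side of the threshold, 164 lost a call, 6 gained one and 1 changed sign.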
